A study of Mus musculus with 12 samples.

Results

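The genes studied here are the loci and host genes of the miRNAs named in 3 hybrid plasmids: Mir148b and its host Copz1, Mir20a and its host Mir17hg, and Eif4h, listed as the host of miR-590. They were taken by symbol from a given list, not by their values, and make up 5 of the 47643 genes in the files. Counts were present for 4 of the 5, and those 4 were tested. All 12 libraries came from C3H/10T1/2, fibroblast-shaped cells of mouse embryonic origin that the labels class under sarcoma and that can form bone, cartilage or fat. The cells were transfected transiently, without a virus, with 0.5 µg plasmid DNA per cm2, the medium was exchanged after 4 h, and RNA was taken on day 3. The groups were pH_BMP2ADV, the reference plasmid, and pH_BMP2ADV20a, pH_BMP2ADV148b and pH_BMP2ADV590, each with 3 libraries. All 4 plasmids carry BMP2 by name, and no untransfected group was analysed here. Expression was therefore transient, and no source used here gives the share of cells that took up a plasmid. The series asks whether plasmids that combine BMP2 with a miRNA could serve bone regeneration.

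A miRNA is cut out of a hairpin in a longer primary transcript, which is often the intron of a protein-coding gene or a non-coding host transcript. The mature strand then guides a silencing complex to messenger RNAs that pair with its seed, the short stretch near its 5′ end. Copz1 encodes the zeta subunit of the COPI coatomer, the coat of vesicles that return from the Golgi to the endoplasmic reticulum. Mir17hg is the host transcript of the miR-17 cluster, known for its induction by Myc and E2F factors and its role in growth. Eif4h encodes a cofactor of the helicase eIF4A in translation initiation.

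The sequences of the plasmid-named miRNAs are shown first because the libraries, which read the 3′ ends of polyadenylated RNA, can count a hairpin or its host but not the mature strand. RefSeq (GRCm38.p6) held a hairpin and 2 mature strands for each of Mir148b and Mir20a. miR-590 is named only. In the hairpins the mature strands are in capitals. The Mir148b hairpin is 97 bases long, at chr15:103285125-103285221 on the plus strand, and the Mir20a hairpin 107 bases, at chr14:115044157-115044263 on the plus strand.
Mir148b hairpin: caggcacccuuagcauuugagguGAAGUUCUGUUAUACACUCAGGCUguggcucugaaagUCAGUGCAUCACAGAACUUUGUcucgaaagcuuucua
Mir20a hairpin: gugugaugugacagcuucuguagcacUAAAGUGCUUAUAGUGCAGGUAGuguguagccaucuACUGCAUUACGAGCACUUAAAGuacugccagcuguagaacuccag

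Of 1679 mature mouse miRNAs in the table, at least 3 share the seed of miR-148b-3p and at least 7 that of miR-20a-5p. Entries on a single chromosome were left out of that search. The seed, bases 2 to 8, is in capitals.
mmu-miR-148b-3p: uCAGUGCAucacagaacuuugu
mmu-miR-148a-3p: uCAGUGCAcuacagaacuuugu
mmu-miR-152-3p: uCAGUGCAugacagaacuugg
mmu-miR-20a-5p: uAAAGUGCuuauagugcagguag
mmu-miR-17-5p: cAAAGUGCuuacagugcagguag
mmu-miR-106b-5p: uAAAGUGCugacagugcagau
mmu-miR-93-5p: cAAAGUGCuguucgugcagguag
These members are shown because their host genes were measured: miR-152 lies with Copz2, miR-17 with Mir17hg, and miR-106b and miR-93 with Mcm7. Those hosts are described below with the plasmid-named ones.

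The 12 libraries held 9236431 to 14727288 gene counts, with 17086 to 18055 genes above 0, and 13229 genes were tested. Replicates 1 and 2 of pH_BMP2ADV590 differed most, with a chi-square per degree of freedom of 29.4. The other pairs within a group were at 6.38 to 19.5. Replicate 3 of pH_BMP2ADV590 differed from replicates 1 and 2 by 10.5 and 10.8, so neither of them is singled out. The counts of COPI genes and the values of Copz1 in that group are therefore also given without replicate 2 and without replicate 1. Levels are TMM-scaled counts-per-million (CPM), given as mean ± SD of 3 libraries. CPM is not divided by gene length. Levels are compared between groups and not between genes. The ratios of Mir148b counts to those of Copz1 and Bmp2 are descriptions only. A gene was called at an adjusted p under 0.05 from edgeR's quasi-likelihood test on all 12 libraries, with Benjamini-Hochberg adjustment over all tested genes. Whether the libraries of groups overlap is given as a description only. The share of all genes without overlap was not counted. Nothing in the labels says that replicates were cultured separately, so p-values measure only the spread between these libraries, which may be technical. All 12 mesenchymal markers checked had a mean of at least 1 CPM over the 12 libraries, with a summed level of 20500 to 24100 CPM. Of the markers of other lineages, 2 of 6 for blood and 1 of 4 in each other list had such a mean over the 12 libraries. Some defining ones were at 0 counts: Adgre1 of macrophages, Cdh5 of endothelium, Krt8 of epithelium, Myod1 of muscle and Olig2 of neural cells. The summed levels of these other lists were 1.33 to 3.5 CPM for blood, 5.22 to 11.9 for endothelium, 1.16 to 3.18 for epithelium, 8.73 to 16.5 for muscle and 8.9 to 27.6 for neural markers.

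Mir148b was counted in all 3 libraries of pH_BMP2ADV148b and in none of the other 9. The counts were 211, 215 and 204, or 21.6, 22.8 and 21.5 CPM. Exact 95% Poisson intervals, which cover counting error only, were 18.8 to 24.7, 19.9 to 26.1 and 18.6 to 24.6 CPM, so the 3 libraries lay within each other's counting error. The other 9 libraries each had 0 counts, and the groups did not overlap.

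The mean of 22.0 ± 0.741 CPM was at least 248-fold higher than in pH_BMP2ADV, with a total of 0 in a group read as at most 3 counts. On the same limit it was at least 281-fold higher than in pH_BMP2ADV20a and at least 258-fold higher than in pH_BMP2ADV590. With 3 counts allowed over the other 9 libraries together, it was at least 787-fold higher. Mir148b passed the filter on low counts only through the group where it is high, so its p-values add nothing to these counts. The edgeR adjusted p was 1.12e-08 against pH_BMP2ADV, where 0.249% of all tested genes were called. It was 7.42e-09 against pH_BMP2ADV20a, where 0.559% of genes were called, and 9.77e-09 for pH_BMP2ADV590 against pH_BMP2ADV148b, where 4.43% were called. Against the mean of the other 3 groups it was 4.78e-12, with 0.945% of genes called in that contrast. In such bulk libraries, more cells that express a gene and more RNA per cell cannot be told apart.

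**Figure D1:**
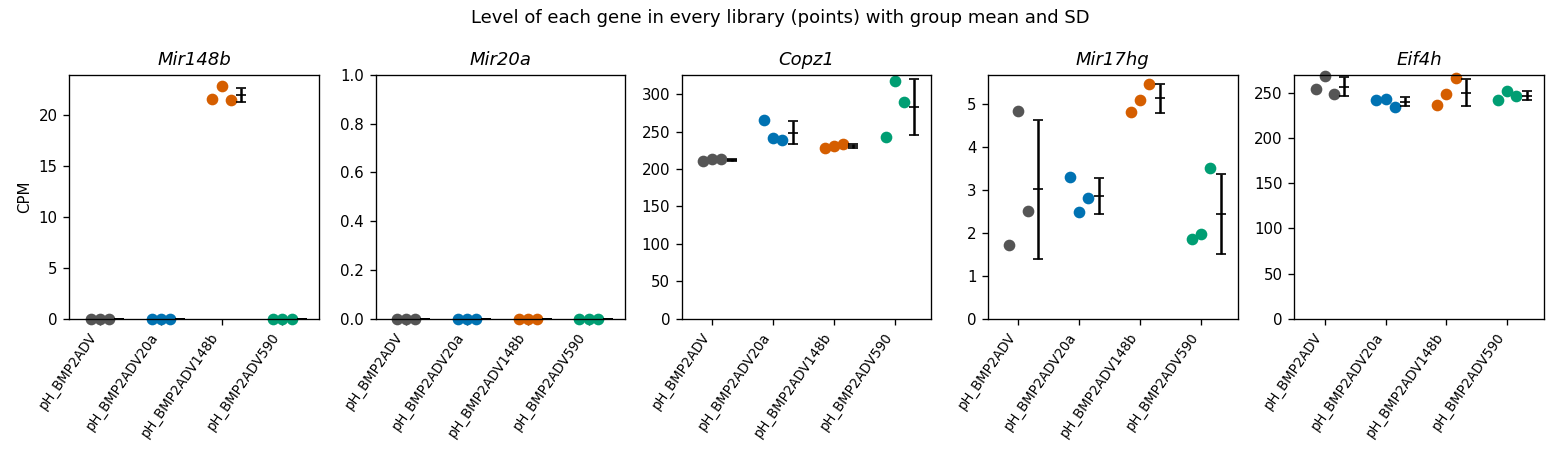
Level in CPM (vertical axes, each from 0) of the 5 genes in every library (points, 3 per group), with the group mean and SD to the right of the points. Mir148b stands at 21.5 to 22.8 CPM in pH_BMP2ADV148b and at 0 in the other groups, Mir20a is at 0 throughout, and Copz1 has its highest mean in pH_BMP2ADV590.

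Few genes had such a pattern. Counting genes with at least 1 count in each library of a group, at least 10 over the group and 0 in the other 9 libraries, there was none in pH_BMP2ADV and 1 in each hybrid group. In pH_BMP2ADV20a this was Cabp5, a calcium-binding protein gene, with 5, 9 and 2 counts, and in pH_BMP2ADV590 the gene model Gm10123, with 10, 2 and 1 counts. Mir148b, with 630 counts, was the only one that still met the rule when 30 counts over the group were asked for.

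The other miRNA genes were read in the same way. Of 1190 genes named as miRNA genes or miRNA host transcripts, 135 had at least 1 count, 13 had counts in all 12 libraries and 14 were tested. None of the other 13 was called in any contrast. That Mir148b was called in the 5 that involve its group, the test over all 4 groups among them, follows from the filter it passed through that group. The test over all 4 groups gave Mir148b an adjusted p of 8.67e-11, with 6.25% of all genes called. Mir703 was at 103 to 112 CPM over the group means and Mir351 at 13.1 to 16.4 CPM. Mir34b, chosen after its values were seen, had means of 2.23 CPM in pH_BMP2ADV and 5.57 in pH_BMP2ADV148b, with a lowest adjusted p of 0.135. Among 63 miRNA genes counted in 1 group only, the largest total other than that of Mir148b was 6 counts.

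**Figure D2:**
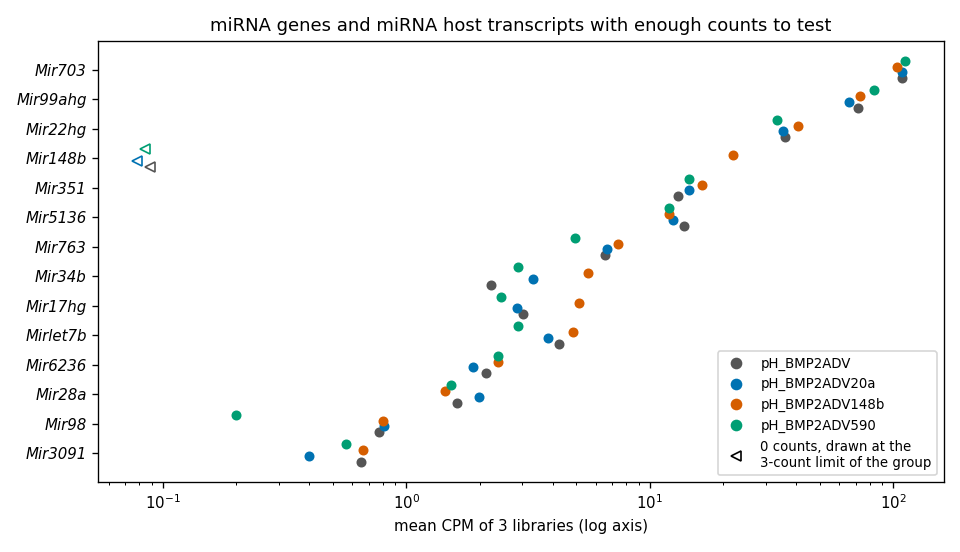
Mean level in CPM of 3 libraries (horizontal log axis) for the 14 tested miRNA genes and host transcripts, one colour per group. Open triangles mark groups of 0 counts, drawn at the limit that 3 counts over the group give (0.0783 to 0.0886 CPM). For Mir148b the filled point at 22.0 CPM belongs to pH_BMP2ADV148b and the other 3 groups are triangles.

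The Mir148b hairpin printed above lies in intron 1 (chr15:103272942-103289100) of all 4 annotated Copz1 transcripts and on the same strand, away from any Copz1 exon. In the libraries of pH_BMP2ADV148b its count was 9.49%, 9.86% and 9.19% of the Copz1 count. Bmp2, the growth factor gene carried by the plasmids by name, had 33, 78 and 42 counts there, so the ratio of Mir148b to Bmp2 counts was 6.39, 2.76 and 4.86. The Bmp2 counts spanned 33 to 78 where those of Mir148b spanned 204 to 215. The mean Bmp2 level was 1.30 ± 0.527 CPM in pH_BMP2ADV, 3.40 ± 0.693 in pH_BMP2ADV20a, 5.36 ± 2.58 in pH_BMP2ADV148b and 5.05 ± 0.687 in pH_BMP2ADV590. Bmp2 was higher in pH_BMP2ADV148b than in pH_BMP2ADV by 2.00 (SE 0.383, adjusted p 0.0326), a call that was lost on leaving out any 1 of 5 libraries and with limma-voom (adjusted p 0.106). Against pH_BMP2ADV it was also higher in pH_BMP2ADV590, by 1.91 (SE 0.381, adjusted p 0.0021), a call kept without each of the 12 libraries, while the difference in pH_BMP2ADV20a was 1.35 (adjusted p 0.16). The test over all 4 groups gave Bmp2 an adjusted p of 0.00534. Bmp2 therefore differed between the groups in which the host genes are compared, and its part in the differences of the hosts was not tested. A count under Bmp2 is from reads that aligned to the mouse gene, and how many came from a plasmid was not tested.

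Mir20a had 0 counts in all 12 libraries, the 3 of pH_BMP2ADV20a included. That 0 cannot be read as an absence of reads. The Mir20a hairpin lies wholly in exon 2 of Mir17hg (chr14:115043271-115046727) on the same strand, and so do the hairpins of Mir17, Mir18, Mir19a, Mir19b-1 and Mir92-1, all 6 with 0 counts. HTSeq in its usual mode sets a read that overlaps 2 genes aside as ambiguous, and no source used here names the mode.

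Other embedded genes in the files had few counts too. Of 238 annotated miRNA genes, unnamed models included, that lie wholly in an exon of another gene on the same strand, 3, or 1.261%, had any count. Of 119 that lie wholly in an exon of a gene on the opposite strand, 13, or 10.924%, had counts. Of 1826 that do not lie wholly in an exon of another gene, 188, or 10.296%, did. Over genes of every kind, 33 of 525 same-strand embedded genes had counts (6.286%) against 99 of 400 on the opposite strand (24.75%). Ambiguous records were 0.332% to 0.372% of all records of a library. They are not split by gene, so no level or limit for Mir20a in pH_BMP2ADV20a follows from them.

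Mir17hg, the transcript that holds the Mir20a hairpin (chr14:115042879-115046727, plus strand), did not pass the test in any of the 10 comparisons. Its levels were low: 1.7, 4.82 and 2.51 CPM in pH_BMP2ADV and 3.29, 2.47 and 2.81 in pH_BMP2ADV20a. They were 4.81, 5.09 and 5.47 CPM in pH_BMP2ADV148b and 1.84, 1.97 and 3.5 in pH_BMP2ADV590. The pH_BMP2ADV148b libraries lay above those of both other hybrid groups, while the reference libraries spanned nearly the whole range.

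In order of their means, the groups were pH_BMP2ADV148b at 5.12 ± 0.329 CPM, pH_BMP2ADV at 3.01 ± 1.62, pH_BMP2ADV20a at 2.86 ± 0.411 and pH_BMP2ADV590 at 2.44 ± 0.927. Neighbours in this order did not differ by the test. The last 3 overlapped, and pH_BMP2ADV148b overlapped pH_BMP2ADV too, with a library at 4.81 CPM against one at 4.82. In pH_BMP2ADV20a against pH_BMP2ADV, where 0.476% of genes were called, the log2 difference in Mir17hg was -0.06 with a 95% interval of -0.83 to 0.71 and an edgeR adjusted p of 0.975. Against the mean of the other 3 groups, where 0.0378% of genes were called, it was -0.22 with an interval of -0.85 to 0.41 and an adjusted p of 0.912. Both intervals are wide, and a difference inside them was not shown, with the reference libraries between 1.7 and 4.82 CPM. The difference of greatest size was that of pH_BMP2ADV590 against pH_BMP2ADV148b, at -1.09 (SE 0.372, adjusted p 0.103). For pH_BMP2ADV148b against the mean of the other groups it was 0.90 (SE 0.288), with an unadjusted p of 0.00463 and an adjusted p of 0.22.

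The named regulators of the cluster did not pass the test either. Of 8 listed, 7 were tested and none was called in any comparison by edgeR, DESeq2 or limma-voom, while Mycn had 0 counts. Myc, the best known activator of the cluster, had 15.4 ± 2.74 CPM in pH_BMP2ADV and 7.64 ± 2.15 in pH_BMP2ADV20a, 10.7 ± 0.896 in pH_BMP2ADV148b and 12.4 ± 6.51 in pH_BMP2ADV590. Its log2 difference in pH_BMP2ADV20a against pH_BMP2ADV was -1.03 (SE 0.288), with an unadjusted p of 0.00156, an adjusted p of 0.144 and no overlap between the groups. When pH_BMP2ADV590 replicate 2 was left out, the same difference of -1.03 had an adjusted p of 0.00506, and it had 0.00737 when only those 2 groups were fitted. Myc was the only one of the 7 at an unadjusted p under 0.05 in that comparison, beside 1306 of all 13229 tested genes. E2f1, a cell-cycle factor, was at 54.5 to 62.4 CPM over the group means, and E2f3 at 16.0 to 19.8.

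Copz1 (chr15:103272714-103299868, plus strand) was the only one of the 3 hosts to be called, and it was higher in pH_BMP2ADV590, not in the group that carries the name of its own miRNA. Its levels were 211, 213 and 213 CPM in pH_BMP2ADV and 266, 241 and 238 in pH_BMP2ADV20a. They were 228, 231 and 233 CPM in pH_BMP2ADV148b and 243, 317 and 289 in pH_BMP2ADV590. Every hybrid library was above every reference library, and the highest values were replicates 2 and 3 of pH_BMP2ADV590. How many of all genes separate in this way was not counted.

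From lowest to highest, the means were pH_BMP2ADV at 212 ± 1.09, pH_BMP2ADV148b at 231 ± 2.9, pH_BMP2ADV20a at 248 ± 15.6 and pH_BMP2ADV590 at 283 ± 37.7 CPM. In pH_BMP2ADV590 against pH_BMP2ADV the log2 difference in Copz1 was 0.41 (SE 0.0856, 95% interval 0.24 to 0.59, adjusted p 0.00299), with no overlap between the groups. In that comparison 8.26% of all genes were called, and 4.37% were called as higher. Without replicate 2 of pH_BMP2ADV590, its highest library, the difference was 0.32 with an adjusted p of 0.018. Without replicate 1, its lowest, the difference was 0.51 with an adjusted p of 0.000238. Against the mean of the other 3 groups, where 8.06% of genes were called and 4.49% as higher, it was 0.30 (SE 0.0685, adjusted p 0.0069). That call was lost without replicate 2 of pH_BMP2ADV590 (0.21, adjusted p 0.0823) and without its replicate 3 (0.28, adjusted p 0.0548). The test over all 4 groups gave Copz1 an adjusted p of 0.0151, and 0.0558 and 0.0784 without the same libraries. Without replicate 1 of pH_BMP2ADV590, the difference from the mean of the other 3 groups was 0.39 (adjusted p 0.000688). The test over all 4 groups then gave an adjusted p of 0.0012.

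The other differences in Copz1 were smaller. In pH_BMP2ADV148b, where the hairpin in its intron was counted at 22.0 CPM, Copz1 differed from pH_BMP2ADV by 0.12 (95% interval -0.06 to 0.30, adjusted p 0.749), although the libraries did not overlap. Against the mean of the other 3 groups it differed by -0.09 (interval -0.24 to 0.05, adjusted p 0.76). The first interval ends at a rise of 0.30 on the log2 scale. In pH_BMP2ADV20a against pH_BMP2ADV it was 0.23 (interval 0.05 to 0.40, adjusted p 0.352), again with no overlap. The 3 contrasts against pH_BMP2ADV share its libraries, in which Copz1 varied by only 1.09 CPM.

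Between hybrid groups, Copz1 was higher in pH_BMP2ADV590 than in pH_BMP2ADV148b by 0.29 (SE 0.0856), with an adjusted p of 0.049997 that barely passed the threshold. In that comparison 2.46% of genes were called as higher. The call was lost under 7 of 10 other settings of scaling, filter and model, and on leaving out any 1 of 11 libraries, with the difference at 0.20 to 0.30. It was kept without replicate 1 of pH_BMP2ADV590 (0.39, adjusted p 0.00527). Against pH_BMP2ADV20a, where 2.17% of genes were called, the difference was 0.19 (interval 0.01 to 0.36, adjusted p 0.313).

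Eif4h (chr5:134619721-134639490, minus strand) did not pass the test in any comparison, and its intervals were narrow. It had 255, 269 and 249 CPM in pH_BMP2ADV and 243, 244 and 235 in pH_BMP2ADV20a. It had 237, 249 and 267 CPM in pH_BMP2ADV148b and 243, 253 and 247 in pH_BMP2ADV590. The group means were 258 ± 10.2, 240 ± 5.1, 251 ± 15.1 and 248 ± 4.93 CPM in that order, and only pH_BMP2ADV20a did not overlap the reference. In pH_BMP2ADV590, the plasmid named after the miRNA listed with this gene, the log2 difference from pH_BMP2ADV was -0.06 (95% interval -0.21 to 0.09, adjusted p 0.724). From the mean of the other 3 groups it was -0.01 (interval -0.13 to 0.11, adjusted p 0.948). The difference of greatest size was that of pH_BMP2ADV20a against pH_BMP2ADV, at -0.10 (interval -0.25 to 0.05, adjusted p 0.681), and the test over all 4 groups gave 0.803. A Mir590 gene was not used here, so the plasmid's own hairpin was not measured and its position in Eif4h was not checked.

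**Figure D3:**
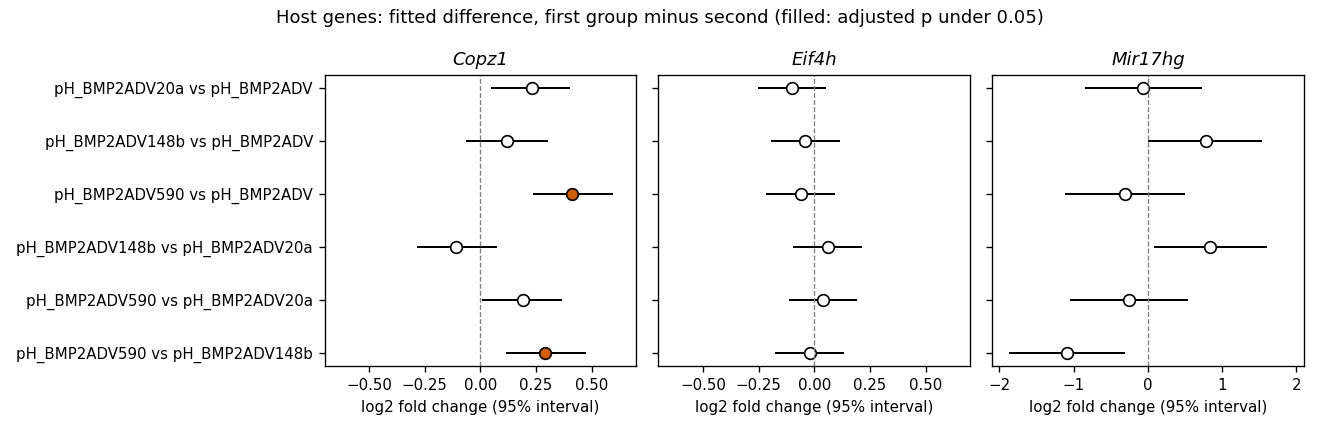
Log2 fold change (horizontal axes, first group minus second) of the 3 host genes in 6 comparisons, with 95% intervals of the edgeR fit and filled points for an adjusted p under 0.05. The axis of Mir17hg is 3 times as wide as the others. Copz1 was called in pH_BMP2ADV590 against pH_BMP2ADV (0.41) and against pH_BMP2ADV148b (0.29), all intervals of Eif4h include 0, and those of Mir17hg are the widest.

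The partners of each host were then counted. The COPI coatomer is built from 7 kinds of subunit, 2 of them with a pair of paralogs, and all 9 genes were tested. In pH_BMP2ADV590 against pH_BMP2ADV, 3 of the 9 rose and none fell: Copz1, Copz2 and Cope. The list was drawn around Copz1, with earlier results of these data known, and Copz1 itself is among the 9. The median log2 difference of the 9 was 0.13, beside 0 over all tested genes. Cope, the epsilon subunit, had 198 ± 31.0 CPM against 151 ± 11.8 (0.39, SE 0.1, adjusted p 0.0167). Copz2, the paralog of Copz1, had 72.6 ± 3.69 against 53.6 ± 6.8 (0.44, SE 0.114, adjusted p 0.0172). Without replicate 2 of pH_BMP2ADV590, Copz1, Copz2 (0.40, adjusted p 0.0465) and Arcn1 (0.32, adjusted p 0.0467) were called and Cope was not. Without replicate 1 of pH_BMP2ADV590, the called genes were Copz1, Copz2 (0.46, adjusted p 0.0268) and Cope (0.45, adjusted p 0.00768). Without replicate 2 of pH_BMP2ADV only Copz1 of the 9 was called.

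Markers of cell types were read in the same comparison. Of the 12 mesenchymal markers, Vim and Lum were called as higher, beside 8.26% of all genes called and 4.37% called as higher. Acta1, the single muscle marker that was tested, was called as lower (-0.53), and the summed muscle markers were at 9.53 to 10.7 CPM against 12.9 to 16.5. In pH_BMP2ADV148b Acta1 was -0.55 from pH_BMP2ADV and not called, with summed muscle markers at 8.73 to 10.8 CPM. No neural marker was called in pH_BMP2ADV590 against pH_BMP2ADV, while the neuronal gene Tubb3 was called over all 4 groups, beside 6.25% of all genes. Summed neural markers were at 16.1 to 22.3 CPM in pH_BMP2ADV590 and 17.3 to 27.6 in pH_BMP2ADV20a, against 8.9 to 15.2 in pH_BMP2ADV. The part of these cell type markers in the results on Copz1 and the coatomer was not tested.

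Other subunits did not pass the test. Copa, the alpha subunit, was at 322 ± 17.0 against 293 ± 8.98 CPM (0.13, adjusted p 0.299) and Copb1 at 90.9 ± 17.4 against 98.3 ± 6.39 (-0.11, adjusted p 0.636). Copg1, the gamma subunit, was at 147 ± 13.5 against 124 ± 12.1 (0.24, adjusted p 0.111). In pH_BMP2ADV20a none of the 9 was called by edgeR, DESeq2 or limma-voom. Of the 5 at an unadjusted p under 0.05 there, 4 were higher and Arcn1, the delta subunit, was lower (-0.32, adjusted p 0.395), with a median of 0.14 over the 9. Over all 13229 tested genes 1306 had such a p in that comparison. In pH_BMP2ADV148b none of the 9 was called by edgeR, DESeq2 or limma-voom. None of them had an unadjusted p under 0.05 in edgeR there, beside 1115 of all 13229 tested genes.

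**Figure D4:**
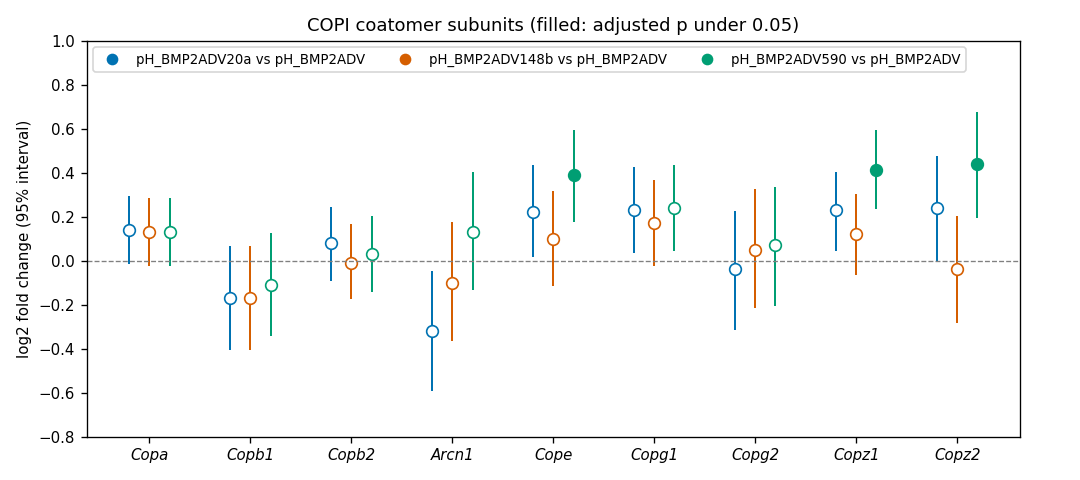
Log2 fold change (vertical axis) of the 9 COPI coatomer genes in each hybrid group against pH_BMP2ADV, with 95% intervals and filled points for an adjusted p under 0.05. The 3 filled points are Cope (0.39), Copz1 (0.41) and Copz2 (0.44) in pH_BMP2ADV590. The 3 comparisons share the reference libraries.

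Of 19 regulators and cargo receptors of COPI vesicles, Tmed3 and Tmed10, p24 cargo receptors, rose in pH_BMP2ADV590 against pH_BMP2ADV and none fell. Tmed3 had 143 ± 8.61 CPM against 115 ± 3.28 (0.31, SE 0.0802, adjusted p 0.0161) and Tmed10 210 ± 23.5 against 174 ± 10.7 (0.27, SE 0.0834, adjusted p 0.0452), with libraries of Tmed10 that overlapped. Both counts, 3 of 9 and 2 of 19, are to be read beside the 4.37% of all genes called as higher. The count of 3 includes Copz1, around which both lists were drawn. Leaving out single libraries moved the count of 2 to between 0 and 2. Without replicate 2 of pH_BMP2ADV590 neither Tmed3 nor Tmed10 was called, and Tmed7, another p24 gene, was (0.57, adjusted p 0.00654). Without replicate 1 of pH_BMP2ADV590, Tmed3 (0.34, adjusted p 0.0183) and Tmed10 (0.35, adjusted p 0.0108) were called. None of the 19 was called by edgeR, DESeq2 or limma-voom, or had an edgeR unadjusted p under 0.05, in pH_BMP2ADV20a or pH_BMP2ADV148b against pH_BMP2ADV. Over all 13229 tested genes, 1306 and 1115 had such a p in those 2 comparisons.

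The translation factors around Eif4h did not pass the test. Of 15 genes of the eIF4 group, 14 were tested and none was called by edgeR or limma-voom in any comparison, while Eif4ebp3 had 0 counts. DESeq2 called Paip1, a partner of the poly(A)-binding protein, over all 4 groups (adjusted p 0.0244). In pH_BMP2ADV590 against pH_BMP2ADV, 3 had an unadjusted p under 0.05, all of them lower, and the median log2 difference was -0.05. Over all 13229 tested genes 2809 had such a p in that comparison, a share much like 3 of 14. The helicase gene Eif4a1, whose product Eif4h assists, had 324 ± 17.7 CPM against 352 ± 10.0 (-0.12, adjusted p 0.371). Its other cofactor Eif4b had 169 ± 9.95 against 170 ± 7.49 (-0.01, adjusted p 0.955). Pabpc1, the poly(A)-binding protein, had 506 ± 44.8 against 612 ± 81.5 (-0.27, adjusted p 0.0839), and was called without pH_BMP2ADV replicate 1 (-0.35, adjusted p 0.0414) and without pH_BMP2ADV590 replicate 1 (-0.34, adjusted p 0.0484). Eif4g3, a scaffold protein, was called without pH_BMP2ADV590 replicate 2 (0.41, adjusted p 0.022).

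Of 3 hosts of miRNAs that share a printed seed, Copz2, Mcm7 and Mir17hg, Copz2 rose and Mcm7 fell in pH_BMP2ADV590 against pH_BMP2ADV, beside 8.26% of all genes called. Copz2, the host of miR-152, was 0.47 higher than in pH_BMP2ADV148b (SE 0.115, adjusted p 0.0158). Mcm7, a replication helicase gene and the host of miR-106b and miR-93, had 117 ± 7.21 CPM against 144 ± 10.5 in pH_BMP2ADV (-0.29, SE 0.0863, adjusted p 0.036) and was -0.30 from pH_BMP2ADV148b (adjusted p 0.0486). In pH_BMP2ADV148b, whose plasmid miRNA shares its seed with miR-152, Copz2 differed from the reference by -0.04 (interval -0.28 to 0.20, adjusted p 0.96). In pH_BMP2ADV20a, whose plasmid miRNA shares its seed with miR-106b, Mcm7 differed by -0.06 (interval -0.24 to 0.12, adjusted p 0.869).

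Seed sites were looked for in the host transcripts themselves. The site of miR-148b-3p, TGCACTG, was searched on the sense strand of the longest annotated transcript of 13202 tested genes, of which 28.7% held it. It occurred 1 time in Copz1, 2 times in Eif4h and not in Mir17hg. The site of miR-20a-5p, GCACTTT, was held by 22.5% and occurred 1 time in Eif4h and in neither of the others. Such matches are descriptions of letters. The 2 motifs share the run GCACT, but the next base is G in one and T in the other. The same run therefore cannot match both. Eif4h, with matches to both, was at -0.04 in pH_BMP2ADV148b (interval -0.19 to 0.11) and at -0.10 in pH_BMP2ADV20a, as given above.

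The host genes of other miRNAs were compared as a class. Of 928 genes with an annotated miRNA gene inside them, 639 were tested. In pH_BMP2ADV590 against pH_BMP2ADV, 51 of the 639 were called, a share much like the 8.26% of all genes. Of these, 31 were higher, beside 4.37% of all genes called as higher, and 20 were lower. The hosts named next are those of smallest p and do not describe the class. Wwp2, a ubiquitin ligase gene and the host of Mir140, a miRNA of cartilage, had 870 ± 100.0 CPM against 521 ± 51.1 (0.74, SE 0.0945, adjusted p 2.17e-05). Col27a1, a fibrillar collagen gene of cartilage and the host of Mir455, had 725 ± 75.4 against 321 ± 56.2 (1.18, SE 0.161, adjusted p 4.71e-05). Boc, a receptor of the hedgehog pathway, was higher by 0.66 (SE 0.0935, adjusted p 6.61e-05) and Ifrd1 was lower by -0.71 (SE 0.1, adjusted p 6.8e-05). In pH_BMP2ADV148b against pH_BMP2ADV, beside 0.249% of all genes, 2 of the 639 hosts were called, Ftl1, a ferritin light chain gene, as higher (0.48, adjusted p 0.0178) and Tmem123 as lower (-0.45, adjusted p 0.0391). In pH_BMP2ADV20a, beside 0.476% of all genes, 2 were called, both as lower, Ifrd1 (-0.45, adjusted p 0.0355) and the complement gene C3, which had under 3 CPM in both groups.

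The nearest tested genes on either side of the hosts were also read. Hnrnpa1, 26.0 kb from Copz1, and Zfp385a, 14.0 kb away, were not called in any contrast. In pH_BMP2ADV590 against pH_BMP2ADV they differed by 0.18 (adjusted p 0.514) and 0.41 (adjusted p 0.178). Lat2, 4.7 kb from Eif4h, was not called, and Limk1, a kinase gene of the actin cytoskeleton 16.5 kb away, was higher in pH_BMP2ADV590 by 0.41 (SE 0.118, adjusted p 0.0295). Mir17hg has no tested neighbour close by. The nearest were Tpm3-rs7 at 1726.1 kb, not called, and the glypican gene Gpc6 at 1878.6 kb, higher in pH_BMP2ADV590 by 0.69 (SE 0.0888, adjusted p 2.44e-05).

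Across the 12 libraries, the genes most like Copz1 by Pearson's r of log2 CPM, out of 8470 searched, were Cd81 (r = 0.952), Plod1 (0.942) and Calr (0.934). Plod1 modifies collagen in the endoplasmic reticulum, Calr is a chaperone there and Cd81 a membrane tetraspanin. For Eif4h they were Fam50a (0.893), Zfp954 (0.839) and Atp6v1c1 (0.824). For Mir17hg they were Fmc1 (0.83), Osbpl2 (0.828) and Gpbp1 (0.827). The hosts were not alike among themselves: r was -0.199 between Copz1 and Mir17hg, -0.197 between Copz1 and Eif4h and 0.266 between Mir17hg and Eif4h. These values share libraries, depth and the groups themselves, and are given as descriptions without a test.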

How the data were processed

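RNA from 12 libraries was sequenced with QuantSeq 3′ mRNA FWD, from 100 ng RNA and 16 PCR cycles per the labels' protocols. The deposited values are raw counts per gene, 1 file per library. Per the submitters' processing notes, FastQC 0.11.5, STAR 2.5.2a and HTSeq 0.6.0 were used, with GRCm38. No source used here gives the mode, strand or gene models of the counting, so reads of a gene and of one overlapping it on the other strand may not be told apart. Lines that hold no gene were 52.2% to 54.4% of records and stayed out of all totals.

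Groups follow the labels. From these counts, edgeR 4.0.16 (R 4.3.3; TMM, filterByExpr, quasi-likelihood F-test, 1 mean per group, Benjamini-Hochberg) tested 13229 genes over all 12 libraries, with steps checked on simulated data. A symbol was found in GENCODE M21 for 47224 genes, and coordinates come from it. Fold changes are log2, first group minus second. The fitted fold of Mir148b is not given, because 0 counts leave it to the prior count. Like genes were sought on log2 CPM with a prior count of 2, among named genes of at least 10 CPM. Intervals from counts cover counting error only, since reads carry no molecular tags. Libraries of a group differed by more than sampling noise (chi-square per degree of freedom 6.38 to 29.4), so none was merged. Alternatives were DESeq2 1.42.0, limma-voom (limma 3.58.1), other scalings and filters, a replicate block and leaving out each library.

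The members, lists and comparisons were chosen with earlier results of these data known. Named were the 5 genes, Bmp2, called members of the COPI, eIF4 and miR-17 cluster regulator lists with others of them as examples, up to 4 called host genes per contrast by smallest p, the 3 genes most like each host and its nearest tested neighbours.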

Additional observations from a re-analysis of the deposited data

Results flagged for a closer look

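Mir148b differed between hybrid groups. It was counted at 22.0 CPM in pH_BMP2ADV148b and at 0 in the others, with edgeR adjusted p-values of 7.42e-09 against pH_BMP2ADV20a and 9.77e-09 for pH_BMP2ADV590 against pH_BMP2ADV148b, and it was present in 3 of 3 libraries. It passed the filter on low counts only through that group, so these p-values follow from the counts and add nothing to them. Copz1 differed between pH_BMP2ADV590 and pH_BMP2ADV148b, by 0.29 on the log2 scale with an edgeR adjusted p of 0.049997, and all 3 libraries of the first were above all 3 of the second. The call was lost under 7 of 10 other settings, among them the replicate block (adjusted p 0.0876) and a fit of only the groups compared (adjusted p 0.119), and on leaving out any 1 of 11 libraries. Groups of 3 libraries are too small for the check on single libraries that stand apart.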

How the results depend on the processing

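Mir148b kept its call in every comparison that involves its group, in all 108 results of the alternative settings. It was counted in that group only, so these calls follow from the counts and add nothing to them. The call of Copz1 in pH_BMP2ADV590 against pH_BMP2ADV held in every alternative setting, at 0.32 to 0.51 without single libraries. Its call against pH_BMP2ADV148b was lost with limma-voom (0.28), raw totals (0.26), and, at 0.29, with Gm42418 removed, DESeq2's size factors, upper-quartile scaling, only the groups compared (adjusted p 0.119) and the replicate block (adjusted p 0.0876), and ranged from 0.20 to 0.39 without single libraries. The ranges without single libraries were 0.21 to 0.39 against the mean of the other groups and adjusted p 0.0012 to 0.0784 over all 4 groups. The cause was not tested. Values near 0 changed sign: Mir17hg in pH_BMP2ADV20a against pH_BMP2ADV was 0.10 with limma-voom and -0.36 to 0.46 without single libraries, and in pH_BMP2ADV590 -0.65 to 0.21. Eif4h in pH_BMP2ADV148b against the mean of the others was -0.03 to 0.05, and in pH_BMP2ADV590 against pH_BMP2ADV148b -0.06 to 0.02. Bmp2 did so in pH_BMP2ADV20a against the mean of the others (-0.14 to 0.20) and in pH_BMP2ADV590 against pH_BMP2ADV148b (-0.34 to 0.37).

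Counts of called genes moved more. In pH_BMP2ADV148b against pH_BMP2ADV (33) they were 82 with DESeq2, 126 with no filter, 14 with the replicate block and 3 to 60 without single libraries. In pH_BMP2ADV20a against pH_BMP2ADV (63) they were 127, 184 and 36 in the same order, 145 with only the groups compared and 18 to 108 without single libraries. In pH_BMP2ADV20a against the mean of the others (5) they were 32 with DESeq2, 0 with limma-voom, 89 with no filter, 3 with the replicate block or upper-quartile scaling and 0 to 68. With no filter, pH_BMP2ADV148b had 197 against the mean of the others (42 to 151 without single libraries) and 137 against pH_BMP2ADV20a (22 to 93), and pH_BMP2ADV590 519 against pH_BMP2ADV20a (172 with the replicate block, 64 to 489). Without single libraries, pH_BMP2ADV590 had 565 to 1115 against pH_BMP2ADV, 241 to 656 against pH_BMP2ADV148b and 623 to 1159 against the mean of the others, and the test over all groups called 548 to 891.

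Of the COPI coatomer, 1 member in place of 2 was called in pH_BMP2ADV590 against pH_BMP2ADV148b under the 7 settings that lost Copz1, and 0 to 2 without single libraries. Without single libraries 1 to 3 were called in pH_BMP2ADV590 against pH_BMP2ADV and 0 to 3 over all 4 groups, where no filter gave 4. No filter and DESeq2 each gave 1 against pH_BMP2ADV20a. COPI regulators gave 1 in place of 2 with limma-voom, raw totals, only the groups compared and the replicate block. With no filter, DESeq2 or only the groups compared, some lists at 0 reached 1, or 2 for the eIF4 factors (Pabpc1 and Eif4g3) in pH_BMP2ADV590 against the mean of the others, and without single libraries they stayed at 0 to 2. Genes found in 1 group only numbered 3, 3, 6 and 1 at a minimum of 3 counts (pH_BMP2ADV, pH_BMP2ADV20a, pH_BMP2ADV148b and pH_BMP2ADV590), 0, 0, 1 and 0 at 30, and 7, 11, 4 and 6 with up to 3 counts elsewhere.

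The replicate numbers did not pair the samples: of 18 same-numbered pairs, 0 had a correlation of deviations over 0.1 (-0.113 to 0.0715), and 1 of 12 libraries correlated best with its own number. DESeq2 gave no adjusted p for Mir17hg in pH_BMP2ADV148b against pH_BMP2ADV. Mir17hg had 83 to 147 counts per group, and its reference libraries spanned 1.7 to 4.82 CPM. Depth sets the 3-count limits of Mir148b. By rank correlation the 3 genes most like Copz1 were Acly, P4hb and Pkp1, none shared with the first 3.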
